A study of Mus musculus with 4 samples.

Results

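The 45 genes described here encode the FoxO transcription factors of muscle, the machinery that builds autophagosomes, the receptors that load cargo into them, the lysosomal transcription factors, membrane proteins and cathepsins, and the calpains. They were chosen by gene name from these routes, with earlier results of these data known, and all 45 were among the 22252 gene names quantified in mouse gastrocnemius muscle. Gene expression was measured by RNA-seq in 4 groups of 7-week-old male mice on the C57BL/6J strain. Each group gave 1 library, made from the pooled RNA of 3 mice, so the spread between mice was not measured and no test was made. The study asked how the glucocorticoid receptor (GR) of skeletal muscle acts in obesity.

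All 4 groups carried the *Nr3c1* gene, which encodes GR, with exon 3 floxed on both alleles (GR Flox+/+). GRfl/fl mice (GRf/f in the sample labels) had no Cre (Cre-/-), and GR-mKO mice (GRmKO in the labels) carried *Acta1*-Cre (Cre+/-), which is active in myofibers, so that other cells of the muscle kept functional GR. The *ob/ob* mice were homozygous for the leptin mutation (Lepob/ob), and their lean controls were Lep+/+. The 4 groups were lean GRfl/fl, lean GR-mKO, *ob/ob* GRfl/fl, and *ob/ob* GR-mKO mice.

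FoxO factors are held out of the nucleus by insulin signaling through Akt, and once in the nucleus they switch on genes of protein breakdown, including those of autophagy. In autophagy, the ULK1 kinase complex and a lipid kinase complex start a membrane sheet, the phagophore, onto which the conjugation machinery attaches proteins of the ATG8 family (LC3 and GABARAP). Receptors that bind ATG8 proteins bring in ubiquitinated proteins or mitochondria, the closed autophagosome fuses with a lysosome, and cathepsins digest its content. TFEB and TFE3 switch on lysosomal and autophagy genes, and calpains are calcium-dependent proteases that act in the cytosol outside this route.

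The libraries held from 19897754 to 20959781 expected counts. Values are given as CPM, a gene's expected count scaled to a common library total as counts per 1000000, and intervals are 95% intervals for counting error only, which leave out the variation between mice. A count of 3 corresponded to between 0.143 and 0.151 CPM. *Nr3c1* was at 125 CPM in lean GRfl/fl, 67.0 in lean GR-mKO, 102 in *ob/ob* GRfl/fl, and 39.1 in *ob/ob* GR-mKO mice, in the direction of the labels. The count takes in other exons and other cells, so it does not measure functional GR. All 8 skeletal myofiber markers were above 0 in every library, with summed levels from 97055 to 116348 CPM. In bulk muscle, fewer cells of a type and less RNA per cell cannot be told apart.

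A gene was called higher or lower at a CPM ratio of at least 1.5-fold, 0.585 on the log2 scale, and 11272 genes with a mean count of at least 50 served as the background. All 45 members passed that minimum. Of the members, 12 have a single annotated protein-coding transcript and 33 have more. Among genes with a single transcript, 1 of 3004 (0.0333%) was listed at 0 in one library and at 100 counts or more in another, as against 115 of 8092 (1.42%) of those with several transcripts. The deposited value of a gene with several transcripts may therefore not cover all of them. *Map1lc3b*, *Ctsd*, and *Capn3* also overlap another gene on the same strand, with which their reads could be shared.

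Per kilobase of the longest protein-coding transcript, the most abundant member was *Ctsd*, encoding the aspartic protease cathepsin D, at 340 CPM per kb as the mean of the 4 libraries. It was followed by *Pink1*, a kinase that marks damaged mitochondria, at 290, by the receptor gene *Sqstm1* (p62) at 252 (above *Pink1* at 331 with the length of its listed transcript), and by the lysosomal membrane protein gene *Lamp1* at 232 CPM per kb. Among ATG8 genes, *Map1lc3a* was highest at 156 CPM per kb, above *Gabarap* at 95.4 and *Map1lc3b* at 62.4. The lowest members were *Tfe3* at 2.23 and *Atg14* at 3.04, and the median member was at 18.3 CPM per kb. The 8 conjugation genes all lay below that median, with *Atg3* the highest of them at 11.4 CPM per kb.

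First, GR-mKO mice were compared with GRfl/fl mice in lean animals, which addressed the members' dependence on myofiber GR without obesity. *Foxo1* and *Optn* were called lower and 0 members were called higher. Over all genes tested, 3.89% were called lower and 5.23% higher. The other 43 members lay within 1.5-fold. The median log2 change of the members was -0.03, beside 0.04 over all genes.

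In *ob/ob* mice, the same comparison again called 2 members lower and 0 higher, beside 8.48% and 4.69% of all genes. These were *Foxo1* and *Tfe3*, the latter through a listed value of 0 that is described below. The median log2 change was -0.02 over the members and -0.04 over all genes. *Foxo1* was called lower in GR-mKO mice of both backgrounds, 1 of the 45 members, where 1.44% of all genes were. The lean and *ob/ob* comparisons share no library. On the CPM scale, 16 members were lower in both and 12 higher in both, and 17 lay on opposite sides, as did 5237 of 11272 genes. The members lower in both made up 35.6% and those higher in both 26.7%, beside 25.8% and 27.7% of all genes. Measured from the median gene of each comparison, 14 were lower in both (31.1%), 10 higher in both (22.2%), and 21 opposite. Of all genes, 26.8% were lower in both, 26.8% higher in both, and 5222 of 11272 opposite.

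*Foxo1* encodes a FoxO factor that insulin signaling restrains and that acts in the metabolic switch of fasting muscle. It was at 66.8 CPM in lean GRfl/fl, 38.7 in lean GR-mKO, 58.8 in *ob/ob* GRfl/fl, and 33.2 in *ob/ob* GR-mKO mice. Both GR-mKO libraries were low and both GRfl/fl libraries high, with no overlap. The share of all genes that separated in this way was not counted. Lower in GR-mKO mice of both backgrounds, a condition that allows overlap, were 25.8% of all genes. The genotype ratio was 1.73-fold down in lean mice, a log2 change of -0.79 (95% interval -0.92 to -0.66), and 1.77-fold down in *ob/ob* mice, a log2 change of -0.83 (-0.96 to -0.69). Of all genes tested, 2.21% in lean and 4.13% in *ob/ob* mice had a log2 change at least as low. *Foxo1* has a single protein-coding transcript, so the limit above on genes with several transcripts does not touch it.

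The gene lies on chromosome 3 (GRCm38, 52268336 to 52353221, plus strand), and its listed transcript has 3 exons. The 250 bases before its RefSeq start site are shown because *Foxo1* was the one member low in both GR-mKO libraries past 1.5-fold. This promoter (RefSeq, GRCm38.p6, chr3:52268087-52268336, plus strand) has a GC content of 56% and 20 CG dinucleotides.
Foxo1: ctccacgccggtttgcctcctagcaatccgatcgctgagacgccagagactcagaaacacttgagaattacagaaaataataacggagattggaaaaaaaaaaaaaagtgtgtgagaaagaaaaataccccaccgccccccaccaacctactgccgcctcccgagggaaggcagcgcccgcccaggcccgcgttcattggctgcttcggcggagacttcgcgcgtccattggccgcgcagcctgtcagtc

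*Foxo3*, the factor with the best-known role in switching on muscle autophagy genes, was at 46.6 CPM in lean GRfl/fl, 40.8 in lean GR-mKO, 54.6 in *ob/ob* GRfl/fl, and 46.7 in *ob/ob* GR-mKO mice. It was lower in GR-mKO mice of both backgrounds, with log2 changes of -0.19 (-0.33 to -0.06) and -0.23 (-0.35 to -0.10), which did not reach 1.5-fold. *Foxo4* was at 84.8, 80.6, 110.4, and 115 CPM in the same order. Its 2 lean libraries were low and its 2 *ob/ob* libraries high, and its genotype changes (-0.07 when lean, 0.06 when *ob/ob*) lay within counting error. With obesity, *Foxo1* was lower by log2 changes of -0.18 (-0.30 to -0.07) in GRfl/fl and -0.22 (-0.37 to -0.07) in GR-mKO mice. *Foxo3* was higher with obesity by 0.23 and 0.20 in the same order. Measured from the median gene of each comparison, *Foxo1* was at -0.08 and -0.03, and *Foxo3* at 0.33 and 0.39. The 3 factors thus took different patterns, as the plot of CPM by library shows. In CPM, *Foxo1* changed more with genotype than with obesity, *Foxo4* mainly with obesity, and *Foxo3* with both at a smaller size.

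**Figure D1:**
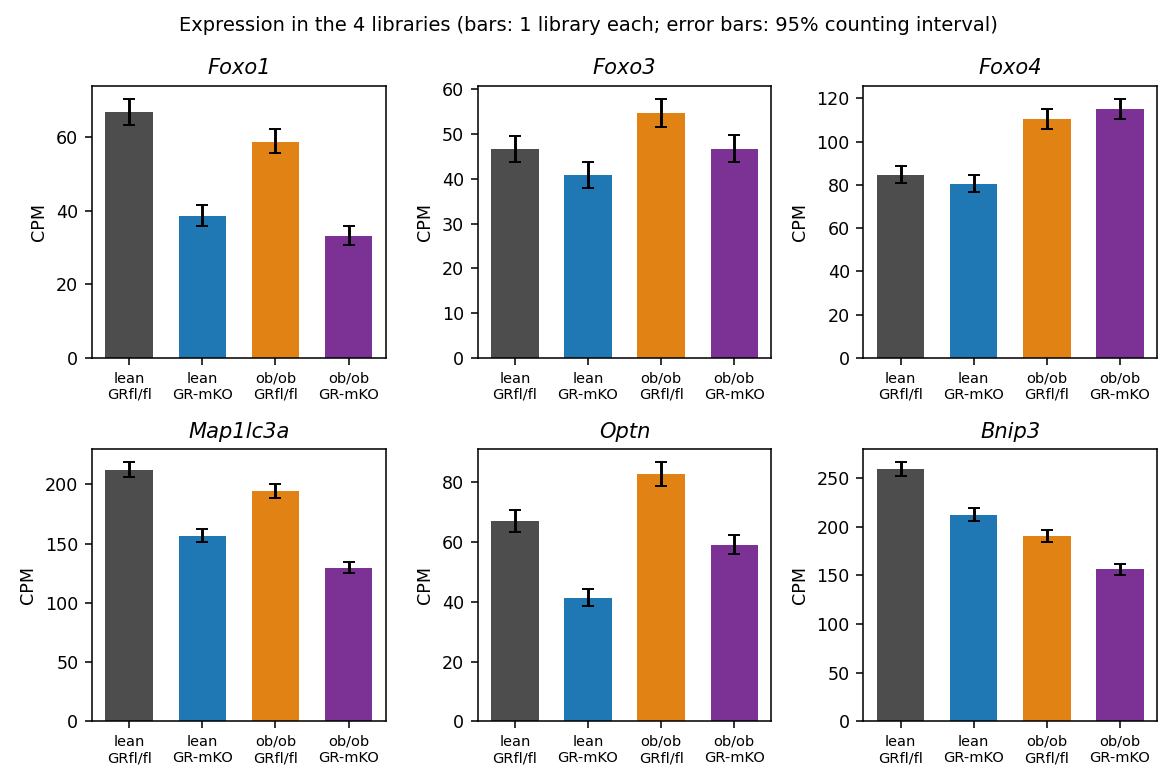
Expression of 6 members in CPM (vertical axis) in each of the 4 libraries (horizontal axis). Each bar is 1 library of RNA pooled from 3 mice, and error bars are 95% intervals for counting error. *Foxo1*, *Map1lc3a*, *Optn*, and *Bnip3* are lower in GR-mKO than in GRfl/fl mice of both backgrounds, and *Foxo4* is higher in the 2 *ob/ob* libraries.

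*Optn* encodes optineurin, a receptor that links ubiquitinated cargo, damaged mitochondria among them, to ATG8 proteins. It was at 67.0 CPM in lean GRfl/fl, 41.4 in lean GR-mKO, 82.8 in *ob/ob* GRfl/fl, and 59.1 in *ob/ob* GR-mKO mice. Each GR-mKO library was below the GRfl/fl library of its own background, and *ob/ob* GR-mKO mice were also below lean GRfl/fl mice. The ratio was 1.62-fold down in lean mice, a log2 change of -0.70 (-0.82 to -0.57), and 1.40-fold down in *ob/ob* mice, a log2 change of -0.49 (-0.59 to -0.38), short of the threshold.

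*Optn* lies on chromosome 2 (GRCm38, 5020642 to 5064051, minus strand). The 250 bases before its RefSeq start site are shown as those of the other member called lower in lean GR-mKO mice (RefSeq, GRCm38.p6, chr2:5064118-5064367, minus strand). They have a GC content of 50% and 8 CG dinucleotides, fewer than the *Foxo1* promoter. They end short of the gene's annotated 5' end at 5064051, so the RefSeq start site lies outside the gene as annotated.
Optn: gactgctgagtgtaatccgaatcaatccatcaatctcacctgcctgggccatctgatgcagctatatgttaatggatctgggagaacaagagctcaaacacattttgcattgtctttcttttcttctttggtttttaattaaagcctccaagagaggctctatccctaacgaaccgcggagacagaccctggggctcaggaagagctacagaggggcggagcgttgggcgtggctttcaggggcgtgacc

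*Map1lc3a*, the LC3 gene highest per length here, was at 212.5 CPM in lean GRfl/fl, 156 in lean GR-mKO, 194.6 in *ob/ob* GRfl/fl, and 130 CPM in *ob/ob* GR-mKO mice. Both GR-mKO libraries were below both GRfl/fl libraries, an order whose share among all genes was not counted. The log2 change was -0.44 (-0.51 to -0.38) in lean and -0.58 (-0.65 to -0.51) in *ob/ob* mice, the latter just inside the threshold. The other LC3 gene, *Map1lc3b*, was at 190, 181, 150, and 135 CPM, with genotype changes of -0.07 and -0.15. *Gabarap* was at 137.5, 148, 115, and 115 CPM, *Gabarapl1* at 80.2, 79.7, 57.3, and 63.1, and *Gabarapl2* at 63.7, 62.0, 52.2, and 49.9. The genotype changes of *Gabarap*, *Gabarapl1*, and *Gabarapl2* lay between -0.07 and 0.14 on the log2 scale. Among the 5 ATG8 genes, *Map1lc3a* thus had the largest genotype change in each background. Of all genes, 6.04% in lean and 8.53% in *ob/ob* mice had a log2 change at least as low as that of *Map1lc3a*.

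Of the 6 adipocyte markers, 6 in lean and 5 in *ob/ob* animals were below 0 between genotypes, the direction of *Foxo1*, *Optn*, and *Map1lc3a*. Their summed level was 1724 CPM in lean GRfl/fl and 1285 in lean GR-mKO mice, and 1245 and 1146 CPM in the *ob/ob* pair, and 4 of 6 were called lower in each comparison. Of the 8 slow-fiber markers, 3 in lean and 4 in *ob/ob* animals were called higher in GR-mKO mice. In *ob/ob* GR-mKO mice 4 of 5 fibroblast and 4 of 10 macrophage markers were called lower than in *ob/ob* GRfl/fl mice, and in lean mice 0 of either. None of these markers was at 0 in any library, and their part in the genotype results was not tested.

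Among genes of mitophagy, *Bnip3* and *Bnip3l* (Nix), 2 related receptors of the outer mitochondrial membrane, lay on opposite sides. *Bnip3* was at 259 CPM in lean GRfl/fl, 212.5 in lean GR-mKO, 190 in *ob/ob* GRfl/fl, and 156 in *ob/ob* GR-mKO mice, with a genotype change of -0.29 on the log2 scale in both backgrounds. *Bnip3l* was at 54.0, 65.1, 47.8, and 63.2 CPM, with changes of 0.27 (0.15 to 0.39) and 0.40 (0.28 to 0.52). Within each background, *Bnip3* was thus lower and *Bnip3l* higher in GR-mKO mice, by less than 1.5-fold. *Pink1* was at 610, 681, 657, and 807.5 CPM, higher in GR-mKO mice by 0.16 and 0.30. *Sqstm1*, at 723, 768, 547, and 657 CPM, was higher in GR-mKO mice by 0.09 and 0.26. *Bnip2*, a BNIP family gene not known as a mitophagy receptor, and the receptor gene *Fundc1* had changes from 0.08 to 0.20 and were within counting error in lean mice. In this group of 5, all but *Bnip3* lay above 0 in both comparisons, with medians of 0.11 (lean) and 0.20 (*ob/ob*).

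**Figure D2:**
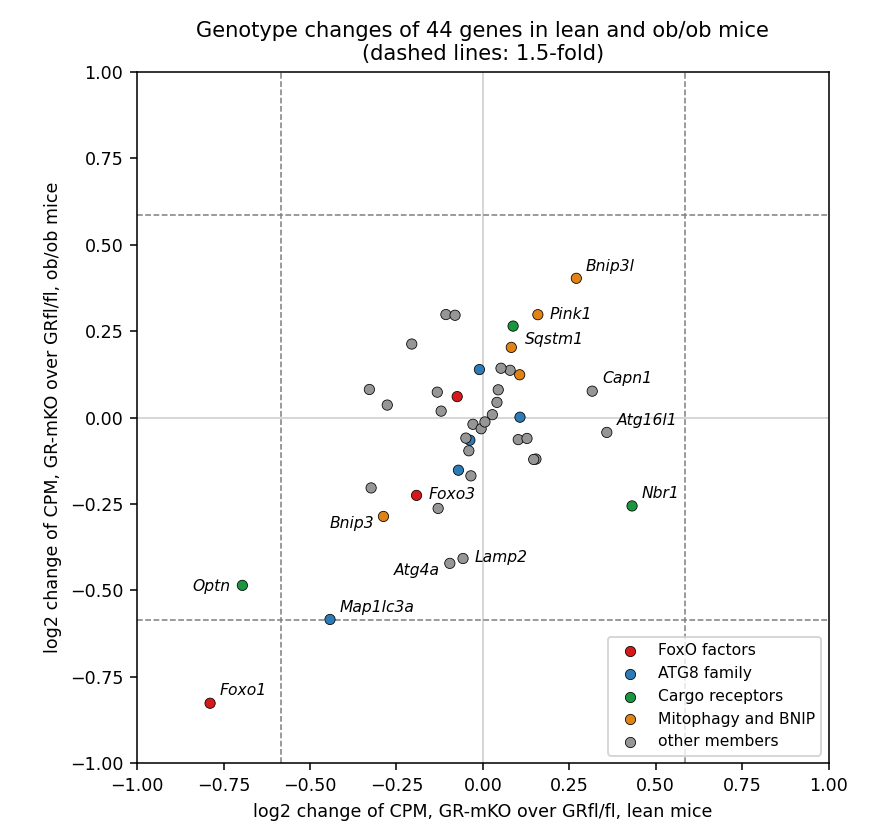
Log2 change of CPM between GR-mKO and GRfl/fl mice in lean (horizontal) and *ob/ob* mice (vertical), each point 1 of 44 genes, colored by role, with dashed lines at 1.5-fold. *Tfe3* is left out because it is listed at 0 in 1 library. *Foxo1* is past both lines on the lower side, *Optn* and *Map1lc3a* are near them, *Bnip3l* is the highest in *ob/ob* mice at 0.40, and *Nbr1* is to the right and below 0.

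*Nbr1*, a receptor related to p62, did not take the same direction in the 2 backgrounds. It was at 32.8 CPM in lean GRfl/fl, 44.2 in lean GR-mKO, 45.6 in *ob/ob* GRfl/fl, and 38.2 in *ob/ob* GR-mKO mice. Lean GRfl/fl mice had the lowest and *ob/ob* GRfl/fl mice the highest value. *Nbr1* has 10 annotated protein-coding transcripts, so its deposited value may not cover all of them. GR-mKO mice were above GRfl/fl mice by 0.43 (0.29 to 0.58) in lean and below them by a log2 change of -0.26 (-0.39 to -0.12) in *ob/ob* animals.

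*Tfe3* is listed at 0 in *ob/ob* GR-mKO mice. It had 9.75 CPM in lean GRfl/fl, 10.3 in lean GR-mKO, and 10.2 in *ob/ob* GRfl/fl mice, from 202, 205, and 213 expected counts. The 3 libraries with counts were alike within counting error. The gene lies on the X chromosome and has 8 annotated protein-coding transcripts, so it belongs to the class in which 1.42% of genes show such a 0. With the listed 0 replaced by 3 counts, the ratio was 71.0-fold down from *ob/ob* GRfl/fl mice and 71.8-fold down from lean GR-mKO mice. These ratios depend on the 3 counts chosen. The intervals for counting error in the *ob/ob* GR-mKO library allowed smaller changes, up to -5.84 and -5.86 on the log2 scale. Whether the gene's other transcripts had reads in that library was not tested. *Tfeb*, its relative and the main activator of lysosomal genes, was at 80.7, 64.2, 81.9, and 86.7 CPM. Lean GR-mKO mice had the lowest value, with a log2 change of -0.33 (-0.43 to -0.22), and the *ob/ob* pair differed by 0.08, within counting error.

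The genes that start an autophagosome differed little between genotypes. Of the ULK1 complex, *Ulk1*, its kinase, was at 94.0, 87.3, 90.4, and 111 CPM in lean GRfl/fl, lean GR-mKO, *ob/ob* GRfl/fl, and *ob/ob* GR-mKO mice. It was below GRfl/fl mice in lean (-0.11) and above them in *ob/ob* GR-mKO mice (0.30), where it was highest. The 4 genes of the complex ranged from -0.28 to 0.04 in lean and from 0.04 to 0.30 in *ob/ob* mice. The lipid kinase genes *Becn1*, *Pik3c3*, and *Atg14* all lay below 0 in both comparisons, from -0.26 to -0.04, and within counting error. The phagophore membrane genes (*Atg9a*, *Atg2a*, *Wipi1*, and *Wipi2*) ranged from -0.17 to 0.30.

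Of the 8 conjugation genes, 4 were above 0 and 4 below 0 in lean mice, and 3 and 5 in *ob/ob* mice. *Atg4d*, encoding one of the proteases that process ATG8 proteins, was lower in GR-mKO mice of both backgrounds (-0.32 and -0.20), and *Atg4a*, another of them, was lower by a log2 change of -0.42 (-0.60 to -0.24) in *ob/ob* mice. *Atg16l1*, part of the complex that places LC3 on the membrane, was at 14.3 CPM in lean GRfl/fl and 18.3 in lean GR-mKO mice, a change of 0.36 (0.13 to 0.59), and at 17.1 and 16.6 CPM in the *ob/ob* pair. *Atg3*, *Atg4b*, *Atg5*, *Atg7*, and *Atg12* lay within counting error in both comparisons.

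Second, *ob/ob* mice were compared with lean mice within each genotype, which addressed how obesity from leptin deficiency bears on the same genes with and without myofiber GR. In GRfl/fl mice 0 members were called higher and 0 lower, beside 5.43% and 11.7% of all genes. In GR-mKO mice 0 were called higher and 1, *Tfe3* at its listed 0, lower, beside 5.02% and 19.9% of all genes. Past 1.5-fold lower in both genotypes were 0 members, where 6.8% of all genes were.

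The median gene lay below 0 on the CPM scale in these comparisons. It was at -0.11 on the log2 scale in GRfl/fl and -0.20 in GR-mKO mice, and the median member at -0.06 and -0.13. Relative to the median gene, *Atg13* was called higher in GRfl/fl mice, 1 of 45 members where 7.83% of all genes were, and 0 members were called lower, where 8.27% were. In GR-mKO mice 6 members were called higher (*Foxo4*, *Ulk2*, *Atg13*, *Wipi1*, *Optn*, and *Tfeb*) and 1, *Tfe3*, lower, beside 9.44% and 12.2% of all genes. Relative to the median gene, 21 of 45 members (46.7%) were higher in both genotypes, beside 34.9% of all genes. Lower in both were 14 (31.1%), also beside 34.9% of all genes.

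Some genes of the ULK1 complex and the phagophore were higher in *ob/ob* mice of both genotypes and others were not. *Atg13*, the subunit that bridges ULK1 to the complex, was at 23.3 CPM in lean GRfl/fl, 24.0 in lean GR-mKO, 32.9 in *ob/ob* GRfl/fl, and 34.7 in *ob/ob* GR-mKO mice. *Ulk2*, the second kinase of the complex, was at 102, 93.3, 132, and 139 CPM. *Wipi1*, which reads the lipid made on the phagophore, was at 50.6, 53.5, 67.0, and 73.6 CPM. In these 3 genes, and in *Foxo4*, both *ob/ob* libraries were above both lean libraries. Of all genes, 21.1% were higher in CPM with obesity in both genotypes, a condition that allows overlap across genotypes.

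The log2 changes of *Atg13* with obesity were 0.50 in GRfl/fl and 0.53 in GR-mKO mice, those of *Ulk2* 0.36 and 0.57, those of *Wipi1* 0.40 and 0.46, and those of *Foxo4* 0.38 and 0.51. Measured from the median gene they were 0.60 and 0.73 for *Atg13*, 0.47 and 0.77 for *Ulk2*, 0.51 and 0.66 for *Wipi1*, and 0.49 and 0.71 for *Foxo4*. In CPM all 8 values lay under 1.5-fold and beyond counting error. Of the 4 genes of the ULK1 complex, 2 were above 0 and 2 below 0 in GRfl/fl mice, the latter being *Ulk1* at -0.06 and *Rb1cc1* at -0.13, both within counting error. In GR-mKO mice all 4 were above 0, from 0.18 to 0.57. Above the median gene were 3 of 4 in GRfl/fl mice (median 0.26) and 4 of 4 in GR-mKO mice (median 0.64). *Atg2a*, which moves lipids to the growing phagophore, was at 23.0, 21.7, 22.2, and 27.3 CPM, highest in *ob/ob* GR-mKO mice. It changed by -0.05 with obesity in GRfl/fl and by 0.33 in GR-mKO mice, and *Wipi2* by -0.03 and 0.06.

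The ATG8 genes stood on the lower side. All 5 were below 0 and below the median gene in both genotypes, with medians of -0.29 in GRfl/fl and -0.34 in GR-mKO mice, or -0.18 and -0.14 relative to the median gene. The largest change was that of *Gabarapl1* in GRfl/fl mice, -0.49 (-0.59 to -0.38). In 4 of the 5 genes, all but *Map1lc3a*, both *ob/ob* libraries were below both lean libraries. Lower with obesity in both genotypes were 51.3% of all genes in CPM and 34.9% relative to the median gene. How many of all genes had both *ob/ob* libraries below both lean libraries was not counted. *Sqstm1* was lower by log2 changes of -0.40 in GRfl/fl and -0.22 in GR-mKO mice, or -0.30 and -0.03 relative to the median gene. *Bnip3* was lower by -0.45 in both, or -0.34 and -0.25 relative to the median gene. Of the conjugation genes, 6 of 8 were below 0 in each genotype, where 62.3% and 67.9% of all genes were. Against the median gene, 3 were above and 5 below it in GRfl/fl mice, and in GR-mKO mice 4 were above and 4 below. *Atg7*, the E1-like enzyme of both conjugation steps, was at 17.5, 19.4, 14.3, and 13.2 CPM, and reached -0.56 (-0.79 to -0.34) in GR-mKO mice, or -0.37 relative to the median gene.

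**Figure D3:**
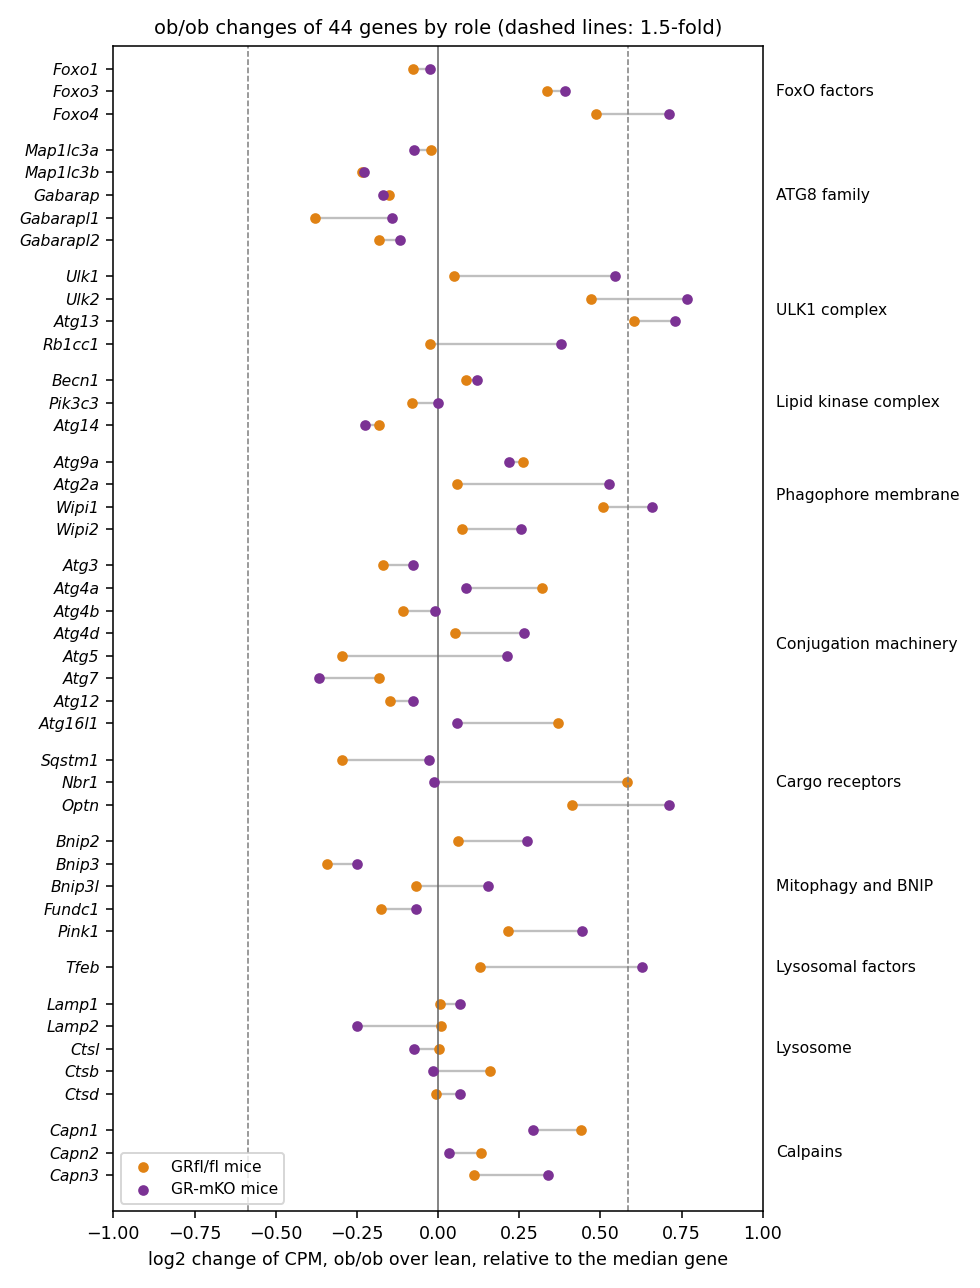
Log2 change of CPM between *ob/ob* and lean mice, relative to the median gene (horizontal axis), for 44 genes grouped by role (vertical axis) in GRfl/fl and GR-mKO mice, with dashed lines at 1.5-fold. *Tfe3* is left out because it is listed at 0 in 1 library. The 5 ATG8 genes lie below 0 in both genotypes, and 6 members pass the upper line in GR-mKO mice.

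Markers of other fibers and cells also differed between *ob/ob* and lean mice. All 8 slow-fiber markers were called higher in *ob/ob* mice of both genotypes, with summed levels of 488 and 650 CPM in lean GRfl/fl and lean GR-mKO mice and 1086 and 1554 CPM in the *ob/ob* pair. Erythroid markers went from 2229 and 2127 to 970 and 872 CPM in the same order, with 5 of 5 tested called lower in both genotypes. Fibroblast markers summed to 5171, 5545, 10326, and 5552 CPM in lean GRfl/fl, lean GR-mKO, *ob/ob* GRfl/fl, and *ob/ob* GR-mKO mice. None of these markers was at 0 in any library. Their part in the members' changes was not tested.

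The 5 lysosomal members differed little. *Lamp1*, encoding the main protein of the lysosomal membrane, was at 539, 537, 502.5, and 491 CPM in lean GRfl/fl, lean GR-mKO, *ob/ob* GRfl/fl, and *ob/ob* GR-mKO mice. *Ctsd* was at 753, 756, 697, and 691 CPM, and *Ctsb*, a cysteine protease, at 478, 530, 497, and 457. For *Lamp1* and *Ctsd*, both *ob/ob* libraries were below both lean libraries by small amounts. The share of all genes in this order was not counted, and 51.3% of all genes were lower with obesity in both genotypes. The changes of *Lamp1* and *Ctsd* were from -0.13 to -0.10, which came to between -0.01 and 0.07 relative to the median gene.

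*Lamp2*, the membrane protein that chaperone-mediated autophagy and autophagosome fusion need, was at 119 CPM in lean GRfl/fl, 115 in lean GR-mKO, 112 in *ob/ob* GRfl/fl, and 84.2 in *ob/ob* GR-mKO mice. Its *ob/ob* GR-mKO library stood below the other 3. The log2 change with obesity was -0.10 (-0.18 to -0.01) in GRfl/fl and -0.45 (-0.54 to -0.36) in GR-mKO mice, or 0.01 and -0.25 relative to the median gene. *Ctsl*, which encodes cathepsin L, was at 115, 124, 107, and 103 CPM. In GR-mKO mice all 5 lysosomal members were below 0, with a median of -0.21, and in GRfl/fl mice 4 of 5, with a median of -0.10. Their medians relative to the median gene were -0.02 in GR-mKO mice (2 above and 3 below) and 0.00 in GRfl/fl mice (4 above and 1 below), so that as a group they lay close to it.

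Macrophages hold many lysosomes, and their markers moved too. The 10 markers summed to 615 CPM in lean GRfl/fl, 780 in lean GR-mKO, 400 in *ob/ob* GRfl/fl, and 291 in *ob/ob* GR-mKO mice. Of the 10, 5 were called lower in *ob/ob* GRfl/fl mice and 10 in *ob/ob* GR-mKO mice, and none was at 0 in any library. Endothelial markers summed to 415, 505, 336, and 304 CPM, with 5 of 5 called lower in *ob/ob* GR-mKO mice. The plot of lysosomal members beside macrophage markers shows the order of the libraries, and the markers' part in the members' levels was not tested.

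**Figure D4:**
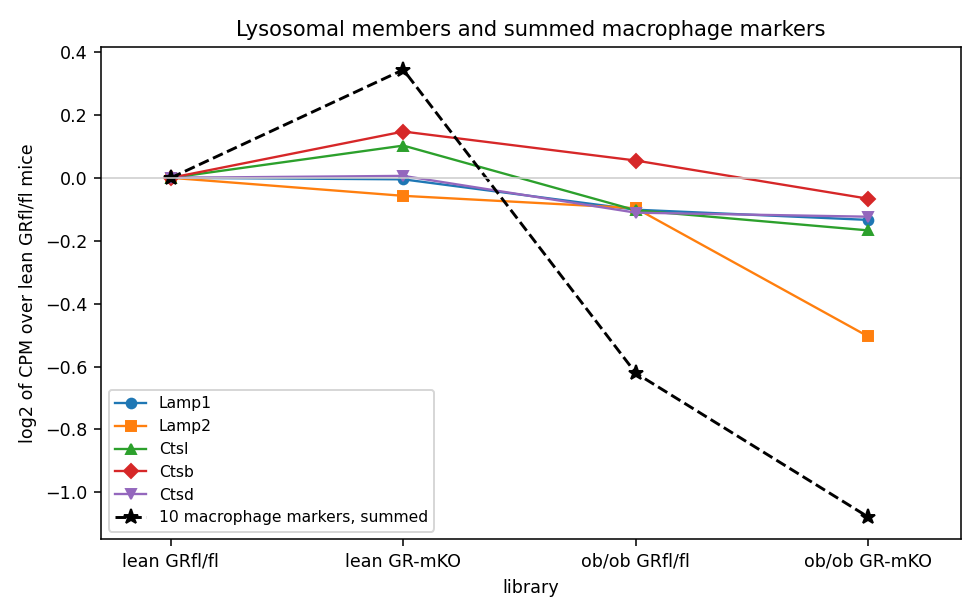
Log2 ratio of CPM to lean GRfl/fl mice (vertical axis) in the 4 libraries (horizontal axis) for the 5 lysosomal members and for 10 macrophage markers summed. Lines join libraries for reading only. The markers are highest in lean GR-mKO and lowest in *ob/ob* GR-mKO mice, and the members stay closer to 0, with *Lamp2* the lowest in *ob/ob* GR-mKO mice.

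The 3 calpains lay within 1.5-fold in all comparisons. *Capn1*, a ubiquitous calpain, was at 85.5, 106, 108, and 114 CPM in lean GRfl/fl, lean GR-mKO, *ob/ob* GRfl/fl, and *ob/ob* GR-mKO mice, so that lean GRfl/fl mice were the lowest. It was higher by 0.32 (0.23 to 0.41) in lean GR-mKO than in lean GRfl/fl mice and by 0.34 (0.24 to 0.43) in *ob/ob* GRfl/fl mice, 2 comparisons that share the lean GRfl/fl library. *Capn2*, the other ubiquitous calpain, was between 110.1 and 123 CPM. *Capn3*, the calpain particular to muscle, was between 133 and 147 CPM.

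The difference between the obesity changes of the 2 genotypes, GR-mKO minus GRfl/fl mice, used all 4 libraries. On this measure 0 members were called higher and 2 lower, beside 5.5% and 13.5% of all genes, and the median member was at -0.01 where the median gene was at -0.07. The 2 were *Nbr1* at -0.69 (95% interval for counting error, -0.89 to -0.49) and *Tfe3* at its listed 0. *Nbr1* was higher by 0.48 in *ob/ob* than in lean GRfl/fl mice and lower by a log2 change of -0.21 in GR-mKO mice. Next on the higher side were *Atg5* at 0.42, *Tfeb* at 0.41, *Ulk1* at 0.40, and *Atg2a* at 0.38, and on the lower side *Atg16l1* at -0.40, *Lamp2* at -0.35, and *Atg4a* at -0.33. All of these lay inside 1.5-fold with intervals that left out 0.

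Genes of the same routes outside the 45 were taken from 4 fixed lists. Their calls are to be read beside the shares of all genes called higher and lower, 5.23% and 3.89% between genotypes in lean and 4.69% and 8.48% in *ob/ob* animals, and with obesity 5.43% and 11.7% (GRfl/fl) and 5.02% and 19.9% (GR-mKO). Of 31 other autophagy genes tested, 1 was called higher and 2 lower between genotypes in lean mice and 0 and 1 in *ob/ob* mice. With obesity 0 were higher and 2 lower in GRfl/fl mice, and in GR-mKO mice 1 was higher and 4 lower. *Wdr45*, a relative of *Wipi1*, and *Trp53inp1*, a p53 target that binds ATG8 proteins, were called lower with obesity in both genotypes, 2 of 31 genes where 6.8% of all genes were. *Wdr45* was at 21.7, 18.6, 13.0, and 10.9 CPM, and *Trp53inp1* at 31.9, 20.9, 16.3, and 12.4 CPM, in lean GRfl/fl, lean GR-mKO, *ob/ob* GRfl/fl, and *ob/ob* GR-mKO mice. For both genes the 2 *ob/ob* libraries were the lowest.

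Of 44 other lysosomal genes, 0 were called between genotypes in lean mice, and 1 was higher and 1 lower in *ob/ob* mice. With obesity 0 were higher and 4 lower in GRfl/fl mice, and 0 higher and 14 lower in GR-mKO mice, beside 11.7% and 19.9% of all genes called lower. The median log2 change in GR-mKO mice was -0.37 over the list and -0.20 over all genes, and in GRfl/fl mice -0.23 and -0.11. With obesity in GR-mKO mice, 10 of 10 macrophage, 5 of 5 endothelial, and 5 of 5 tested erythroid markers were also called lower. All 8 slow-fiber markers were called higher. The markers' part in the changes of this list was not tested. *Ctso*, a cathepsin gene (18.9, 18.2, 11.7, and 9.81 CPM in the same order), and *Npc1*, whose protein carries cholesterol out of lysosomes (111, 76.8, 65.9, and 45.6 CPM), were called lower with obesity in both genotypes, again 2 genes of the list beside 6.8% of all genes. Relative to the median gene, *Wdr45* in GR-mKO (-0.58), *Trp53inp1* in GR-mKO (-0.56), *Ctso* in GRfl/fl (-0.58), and *Npc1* in GR-mKO mice (-0.56) came just inside the threshold.

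Of 21 other genes linked to FoxO factors, 1 was higher and 1 lower between genotypes in lean mice and 3 and 1 in *ob/ob* mice. With obesity 1 was higher and 3 lower in GRfl/fl mice, and in GR-mKO mice 2 were higher and 3 lower. *Gadd45a*, a growth arrest gene, was at 21.8 CPM in lean GRfl/fl, 36.9 in lean GR-mKO, 16.8 in *ob/ob* GRfl/fl, and 30.3 in *ob/ob* GR-mKO mice, higher in GR-mKO mice by 0.76 and 0.85. *Lpin1*, encoding a phosphatidate phosphatase, was at 371, 243, 361, and 204 CPM, lower by log2 changes of -0.61 and -0.82. These 2 genes thus took opposite directions between genotypes, and any link to *Foxo1* was not tested.

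*Sesn3*, encoding a sestrin that restrains mTORC1, was at 18.2, 25.1, 31.3, and 42.0 CPM, higher with obesity by 0.79 in GRfl/fl and 0.74 in GR-mKO mice. *Fbxo21*, a ubiquitin ligase subunit, was at 23.9, 24.1, 14.9, and 15.5 CPM, lower by log2 changes of -0.68 and -0.64, or -0.57 and -0.45 relative to the median gene. Of 7 other genes of the calpain system, 0 were called between genotypes in lean mice and 1 was higher in *ob/ob* mice, and with obesity 1 was lower in each genotype.

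Promoters were searched for 4 motifs because the members include targets that FoxO factors, TFEB, and TFE3 are known for. RefSeq (GRCm38.p6) promoters, from 250 bases before to 50 after the start site, were at hand for 36 of the 45 members, and both strands were read. For 32 of the 36, the last 40 bases of a promoter lay in a GENCODE M21 transcript of the same gene. The motif of TFEB and TFE3, GTCACGTG, was in 5 of 36 members (13.9%) and in 2.55% of the 27025 genes with a promoter. The shorter E-box CACGTG, which the former contains, was in 8 of 36 (22.2%), the same 5 and *Atg5*, *Bnip3*, and *Ctsl*, and in 8.09% of genes. The FoxO motif GTAAACA was in 0 of 36 members and in 4.05% of genes, and ACANNNTGT, the core of a glucocorticoid response element, was in 0 of 36 members and in 7.90% of genes. No match says only that these letters are not in this window.

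The 30-base windows around the GTCACGTG matches are shown with the motif in capitals, read along the gene's strand, so that the reverse complement appears as CACGTGAC. From the motif's first base to the RefSeq start site the distance was 1 base in *Atg14* (chr14:47568417-47568446, minus strand), 96 and 73 in *Atg3* (chr16:45158722-45158751 and chr16:45158745-45158774, plus strand), 134 in *Atg7* (chr6:114670951-114670980, plus strand), 28 in *Lamp1* (chr8:13159122-13159151, plus strand), and 98 in *Ctsd* (chr7:142387907-142387936, minus strand). The windows of *Atg14*, *Atg7*, and *Ctsd* lie inside the genes as annotated in GENCODE M21. There the 5' ends are at 47570649, 114643097, and 142388038, so these are not the outermost start sites. The *Atg3* windows lie before the annotated 5' end of that gene, at 45158785. That end is closer to them than the RefSeq start site, which is thus not the outermost either.
Atg14: aaacaaaatccCACGTGACtggccctgagc
Atg3, first: ggcctccttttGTCACGTGtcctgggagag
Atg3, second: gggagagtcgaGTCACGTGaggccttaggt
Atg7: ccatattggtgGTCACGTGtgcagtaagtg
Lamp1: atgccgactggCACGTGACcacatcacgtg
Ctsd: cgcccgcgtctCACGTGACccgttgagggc

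Between genotypes these 5 genes had log2 changes from -0.13 to 0.15 in lean and from -0.26 to 0.04 in *ob/ob* mice. With obesity all 5 were below 0 in both genotypes, from -0.29 to -0.10 in GRfl/fl and from -0.56 to -0.13 in GR-mKO mice, and none reached 1.5-fold. Relative to the median gene, *Lamp1* was at 0.00 and *Ctsd* at -0.01 in GRfl/fl mice and both at 0.07 in GR-mKO mice. Lean GR-mKO mice, in which *Tfeb* was lowest, had *Lamp1* and *Ctsd* at 537 and 756 CPM beside 539 and 753 in lean GRfl/fl mice. Any link between the level of *Tfeb* and these genes was not tested.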

How the data were processed

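Gastrocnemius muscle of 4 groups was profiled by RNA-seq, each as 1 library from RNA of 3 pooled mice. The authors quantified reads against GENCODE protein-coding transcripts with Salmon 1.2.1 and summarized them with tximport (lengthScaledTPM) in R 3.5.0, on mm10 per the submitters' processing notes. For a duplicated gene name they retained its most abundant entry. Expected counts per gene name were deposited, without normalization between libraries. Each name carries 1 transcript ID, and all 22252 IDs were found in GENCODE M21 (GRCm38), which gave lengths, transcript numbers, and coordinates.

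CPM was computed on the full library totals. Genes with a mean of at least 50 expected counts (11272) formed the background, and a ratio of at least 1.5-fold was called. For ratios a 0 was replaced by 3 counts. Ratios carry 95% exact conditional binomial intervals, single values exact Poisson intervals, and differences of changes normal intervals on the log2 scale, all on rounded counts and for counting error only. With 1 library per group no test, leave-one-out analysis, or comparison with the variation between mice was possible. The authors' method, NOISeq-sim, was not used because its probability comes from simulated technical replicates. The calling step was tested on simulated data that held counting error only, which does not cover the variation between mice. GR-mKO mice were set against GRfl/fl mice in each background and *ob/ob* against lean mice in each genotype, and the difference of the latter was taken.

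The members and all gene lists were chosen with earlier results of these data known. Any member could be named. Of the other autophagy, lysosomal, FoxO-linked, and calpain lists, a gene was named if it passed 1.5-fold in the same direction in both genotype or both obesity comparisons, which share no library. Marker lists of skeletal myofibers, slow myofibers, macrophages, adipocytes, endothelium, fibroblasts, and erythroid cells were summed per library. Other scalings tried were TMM (edgeR 4.0.16), size factors of DESeq2 1.42.0, the upper quartile, library totals that leave out the top 50 genes, and changes relative to the median gene, and other count minimums and fold thresholds were tried. Members with a single transcript and members without *Tfe3* were added after seeing the data. R 4.3.3, Python 3.11.15, numpy 2.4.6, pandas 2.3.3, scipy 1.17.1, and matplotlib 3.10.9 were used. Promoter sequences are from RefSeq (GRCm38.p6).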

Additional observations from a re-analysis of the deposited data

Results flagged for a closer look

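For 3 members, the changes in 2 comparisons that share no library lay on opposite sides of 0, each beyond counting error in CPM and on opposite sides of the median gene as well. With 1 library per group the difference itself was not tested. Opposite signs alone were seen between genotypes in 17 of 45 members and 5237 of 11272 genes. With obesity they were seen in 13 members and 3107 genes. How many of all genes met the full rule was not counted. The log2 change of *Nbr1* with obesity was 0.48 in GRfl/fl and -0.21 in GR-mKO mice, a difference of -0.69. Seen between genotypes, the same 4 values gave 0.43 in lean and -0.26 in *ob/ob* mice, again a difference of -0.69. The deposited value of *Nbr1* may not cover all of its 10 annotated protein-coding transcripts. *Ctsb* changed by 0.05 with obesity in GRfl/fl and by -0.21 in GR-mKO mice, a difference of -0.27, and by 0.15 between genotypes in lean and -0.12 in *ob/ob* mice, also a difference of -0.27. *Ulk1* was lower in GR-mKO mice when lean (-0.11) and higher when *ob/ob* (0.30), a difference of 0.40. The summed macrophage markers were at 615 and 780 CPM in lean GRfl/fl and GR-mKO mice and 400 and 291 CPM in the *ob/ob* pair. They were highest and lowest in the same libraries as *Ctsb*. With obesity in GRfl/fl mice, *Ctsb* was higher by 0.05 while all 10 markers were below 0. The markers' part in the level of *Ctsb* was not tested.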

How the results depend on the processing

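No paired analysis was possible because each group is 1 library, and for the same reason no replicate could be left out. Numbers of members called depended on the scale in the obesity comparisons. In GRfl/fl mice the 0 members called became 2 with TMM or DESeq2 factors. They became 1 with upper quartile scaling or relative to the median gene, and all were higher. The median of -0.06 became 0.0567 with TMM and 0.0604 with DESeq2 factors. It was 0.0396 with upper quartile scaling, 0.0492 relative to the median gene, and -0.0218 without the 50 most abundant genes. In GR-mKO mice the 1 called became 7 (6 higher and 1 lower) with TMM or DESeq2 factors, upper quartile scaling, or relative to the median gene, and 5 (4 higher and 1 lower) without the 50 most abundant genes. There the median of -0.13 became 0.0765 with TMM and 0.0846 with DESeq2 factors, 0.0622 with upper quartile scaling, and 0.0665 relative to the median gene. Between genotypes in *ob/ob* mice, the median of -0.02 lay from 0.0189 to 0.0514 under the 5 other scalings. In lean mice the genotype median stayed below 0 under all of them.

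At 2-fold, the 2 members called between genotypes became 0 in lean mice and 1 in *ob/ob* mice, and the 2 called for the difference of changes became 1. At a log2 threshold of 0.32, 7 were called between genotypes in each background (2 higher and 5 lower in lean mice, 1 and 6 in *ob/ob* mice), and with obesity 11 in GRfl/fl (6 and 5) and 16 in GR-mKO mice (8 and 8). A mean of at least 200 counts, counts above 0 in all 4 libraries, or leaving out *Tfe3* each left 1 member called between genotypes in *ob/ob* mice, 0 with obesity in GR-mKO mice, and 1 for the difference. Among the 12 members with a single transcript, 1 was called between genotypes in each background, 0 with obesity in GR-mKO mice, and 0 for the difference. Of 200 log2 changes of 10 named members recomputed under other scalings, 190 kept their call. The 10 whose call differed were those of *Foxo4* and *Optn* with obesity in GR-mKO mice, called higher under all 5 scalings. A reversed sign was looked for only among changes past 1.5-fold, which were large, and 0 were found. Small changes could cross 0. That of *Gabarapl2* between genotypes in *ob/ob* mice went from -0.0656 to 0.0054 with upper quartile scaling. The median level per length was 20.3 CPM per kb with the listed in place of the longest transcript, which placed *Sqstm1* (331) above *Pink1* (290).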
